A study of Rattus norvegicus with 17 samples.

Results

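The aquaporins of the rat meibomian gland (MG) were described from the transcriptome of dissected glands. The 7 genes Aqp1, Aqp3, Aqp4, Aqp5, Aqp7, Aqp9 and Aqp11 were taken by their symbols from a table of 17251 genes. The glands came from 17 female rats of 10 to 12 weeks of age, with 1 deposited column per rat. The 4 groups were Control WT (wild-type, no treatment, n = 4), Control P1.hMR (transgenic, no treatment, n = 5), UVB WT (wild-type, eyelids irradiated with UVB for 5 days, n = 3) and UVB P1.hMR (transgenic with the same irradiation, n = 5). P1.hMR rats carry the human mineralocorticoid receptor (MR) gene under its proximal P1 promoter, which is active in every organ that expresses MR and not only in the MG. The comparisons asked whether UVB, MR overexpression or their combination went with a different level of each aquaporin.

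Aquaporins are membrane channels that let water cross along an osmotic gradient. Aqp1, Aqp4 and Aqp5 are mainly water channels. Aqp3, Aqp7 and Aqp9 are aquaglyceroporins, which also pass glycerol and other small uncharged solutes, and Aqp11 is an intracellular member placed in the endoplasmic reticulum. In epithelia, Aqp3 sits in the plasma membrane of basal cells, and its glycerol transport is known to contribute to the hydration of skin. The MG is a holocrine gland of the eyelid whose meibocytes fill with lipid, and glycerol is the backbone of their triglycerides.

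The start sites of the members differed in base composition and in motifs. RefSeq promoters of GRCr8, from 250 bases before to 50 bases after the start, were matched for 6 of the 7 members, and Aqp4 had 2 of them. Their GC content was 82.3% for Aqp5, 72.3% for Aqp11, 67.3% for Aqp3, 64% for Aqp1, 53.3% for Aqp9, and 47.3% and 51.3% for Aqp4, against a median of 51.7% over 33469 promoters. Letters of 5 motifs, chosen after the promoters had been read, were searched on both strands. The TATA box letters TATAAA stood in the promoters of 2 members, Aqp3 and Aqp1, starting 38 and 30 bases before the start, and in 14.2% of all promoters. The half-site of corticosteroid receptors, MR included, is AGAACA. It stood in 1 member, Aqp9, on the reverse strand between 31 and 26 bases before the start, and in 20.7% of all promoters. The full element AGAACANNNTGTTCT, which holds the half-site, was in none of the member promoters and in 0.0149% of all. The AP-1 letters TGANTCA were in none of them and in 7.33% of all. The GC box letters GGGCGG were in those of 5 members and in 33.1% of all. A match to these letters is a description of the window and shows no binding. The 100 bases before the start are shown for the 2 most abundant members, with TATAAA in capitals, and for Aqp9, which fell after UVB in P1.hMR rats, with the half-site (read here as its complement) in capitals.
Aqp3 (GRCr8 chr5:61040684-61040783, minus strand): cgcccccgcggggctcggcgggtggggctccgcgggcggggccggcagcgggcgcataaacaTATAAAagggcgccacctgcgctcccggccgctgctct
Aqp1 (GRCr8 chr4:85812684-85812783, plus strand): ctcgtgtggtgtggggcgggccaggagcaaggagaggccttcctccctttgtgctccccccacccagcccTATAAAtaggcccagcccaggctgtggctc
Aqp9 (GRCr8 chr8:80718189-80718288, minus strand): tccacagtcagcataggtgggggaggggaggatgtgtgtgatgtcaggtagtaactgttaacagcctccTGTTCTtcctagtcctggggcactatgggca

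The deposited unit was TPM (transcripts per 1000000), a share of each library corrected for transcript length, so that levels of different genes could be compared. TPM keeps no read counts, so the depth behind each value is unknown and precision was taken from the spread between rats. Between 12372 and 12737 genes reached 1 TPM in each rat. The 17 meibocyte markers summed to values between 45140 and 62980 TPM, led by Scd (23990 to 31200 TPM) and Awat2 (6495 to 12060 TPM), enzymes of fatty acid desaturation and wax ester synthesis. Human NR3C2 was detected in each of the 10 P1.hMR rats (5.31 to 9.31 TPM) and was 0 in each of the 7 WT rats. The rat gene Nr3c2 ranged from 6.53 to 25.9 TPM in WT and from 6.33 to 11.8 TPM in P1.hMR rats, and quantification could have split reads between the 2 closely related genes.

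Aqp3 dominated the aquaporins of the gland. It made up 80.4% to 86% of the summed TPM of the 7 members in each rat, and Aqp1 a further 10.1% to 14.9%. The sum itself ran from 567 to 963 TPM. Averaged over the 17 rats, Aqp3 reached 636 TPM, rank 189 of the 17251 listed genes, and Aqp1 reached 90.5 TPM, rank 1550. Aqp11 (15.5 TPM) and Aqp4 (13.5 TPM) followed, then Aqp9 (5.95 TPM) and Aqp5 (2.78 TPM). Aqp7 never reached 1 TPM. Of the other listed aquaporins, Aqp12a lay between 0.14 and 1.35 TPM, above Aqp7 on average, while Aqp8 reached at most 0.15 TPM and Mip at most 0.1 TPM, and Aqp6 was at 0 in 16 of 17 rats.

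**Figure D1:**
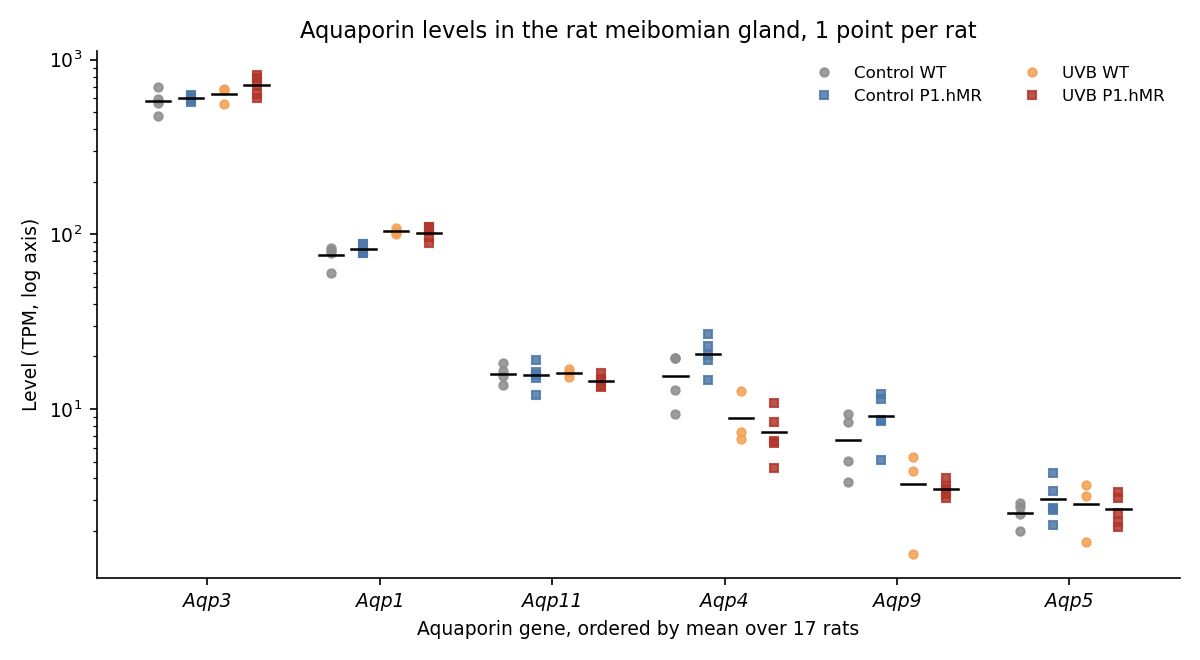
Levels of 6 aquaporins on a log axis in TPM, with 1 point per rat, the 4 groups side by side and a black bar at each group mean. Aqp3 lay between 474 and 821 TPM and Aqp1 between 59.8 and 110.05 TPM in all 17 rats, while Aqp4 and Aqp9 were lower on average in both UVB groups than in both control groups; Aqp7, with rats at 0, is not drawn.

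The top of the order was the same in each group and its middle was not. In all 4 groups Aqp3 was the first and Aqp1 the second, and the ranges of these neighbours, like those of Aqp1 and the next gene, did not overlap. Aqp5 and Aqp7 were the sixth and the seventh everywhere. In Control WT rats Aqp11 (16.0 ± 1.95 TPM, SD, n = 4) and Aqp4 (15.4 ± 5.13 TPM) did not differ beyond their spread, and 2 of the 4 rats had them in the reverse order. In Control P1.hMR rats Aqp4 was the third, with 20.8 ± 4.48 TPM (SD, n = 5) against 15.6 ± 2.58 TPM for Aqp11, and 1 of 5 rats had the reverse order. In both UVB groups Aqp11 was the third, and its range lay above that of Aqp4. There the fifth and sixth genes, Aqp9 and Aqp5, overlapped in range, which they did not in either control group.

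Aqp1, the water channel known from capillary endothelium and from corneal endothelial cells, was higher in each irradiated rat than in each control rat, by less than the fold threshold. It was measured at 59.8, 81.8, 83.8 and 78.7 TPM in Control WT rats and at 80.5, 77.9, 78.6, 87.5 and 87.7 TPM in Control P1.hMR rats. In UVB WT rats it reached 108.7, 102.8 and 100.3 TPM, and in UVB P1.hMR rats 104, 97.1, 89.5, 109.55 and 110.05 TPM. Each of the 8 irradiated rats thus stood above each of the 9 control rats, a pattern that 5.51% of the 13105 genes tested showed in the same direction. On the log2(TPM + 1) scale the difference was 0.46 in WT rats (standard error 0.098, limma adjusted p = 0.00409) and 0.30 in P1.hMR rats (standard error 0.081, limma adjusted p = 0.00749). Averaged over genotypes it was 0.38 with a 95% interval from 0.25 to 0.51, which is 1.3-fold. A gene was called here only at an adjusted p under 0.05 together with an absolute log2 difference of at least 0.5, so Aqp1 was not called in any of these comparisons.

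The endothelial markers of the glands were higher in the same rats. The 10 listed markers summed to between 103 and 131 TPM in control rats and to between 130 and 169 TPM in UVB rats. In UVB averaged over genotypes, 2 of the 10 were called, both higher, where 9.48% of all genes tested were called, and 9 had a positive difference, with a median of 0.27 against -0.01 over all genes. Eng, an endothelial co-receptor of TGF-beta ligands and the most abundant of the list, had a difference of 0.83 (limma adjusted p = 2.82e-05), and Egfl7, the second, ranged from 13.2 to 27.1 TPM. Pecam1 and Cldn5 were not analysed here. Of the red blood cell markers, cells in which Aqp1 is abundant, 3 of 10 were listed, led by Slc4a1 and Ahsp, and they summed to between 2.11 and 3.49 TPM with 0 called (0 at an unadjusted p under 0.05). After subtraction of the group means, Aqp1 and the endothelial sum had a Pearson r of 0.64 over 17 rats (permutation p = 0.0103, Benjamini-Hochberg adjusted p = 0.123 over 60 relations of members and marker lists) and a Spearman rho of 0.68 (permutation p = 0.00548, adjusted p = 0.0944). Without the 2 rats farthest in the endothelial sum r was 0.65. The relation was not particular to Aqp1, since Aqp3 had an r of 0.635 with the same sum (permutation p = 0.0176, adjusted p = 0.176). Its rho was 0.49 (permutation p = 0.0751, adjusted p = 0.375), and its r was 0.51 without the 2 rats. In such bulk samples, more cells of a type and more RNA per cell cannot be told apart, and the part of the endothelial cells in the level of Aqp1 was not tested.

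Aqp4, the water channel of astrocyte endfeet that is also known from fast skeletal muscle fibres and several glandular epithelia, fell after UVB in P1.hMR rats. Its levels in Control P1.hMR rats were 20.4, 19.04, 14.7, 26.8 and 22.9 TPM. In UVB P1.hMR rats they were 6.38, 8.41, 6.57, 10.8 and 4.62 TPM. The lowest control rat thus stood above the highest irradiated rat, as for 14% of the genes tested, and the log2 difference was -1.40 (standard error 0.23, limma adjusted p = 0.000202). The ratio of mean TPM was 0.355.

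In WT rats the values of Aqp4 leaned the same way without passing the test. They were 9.37, 19.7, 19.5 and 12.8 TPM in Control WT and 12.7, 7.43 and 6.7 TPM in UVB WT rats. The groups overlapped through Control WT rat 1 and UVB WT rat 1, and the log2 difference was -0.71 (95% interval -1.30 to -0.12, limma adjusted p = 0.0791). Without Control WT rat 1 it was -0.91 (adjusted p = 0.0256) and without UVB WT rat 1 it was -0.96 (adjusted p = 0.0343), and Aqp4 was then called, as with limma sample weights (-0.87, adjusted p = 0.0466). Other settings made it smaller, down to -0.55 without UVB WT rat 3 (adjusted p = 0.241). Averaged over genotypes Aqp4 fell by 1.05 on the log2 scale (limma adjusted p = 0.000188). The 2 responses were not shown to differ, with a genotype by UVB interaction of -0.69 (95% interval -1.45 to 0.07, limma adjusted p = 0.758).

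Markers of skeletal muscle were present in the dissected eyelid tissue, and some of them fell after UVB. The 12 listed markers summed to between 2814 and 4991 TPM in control and between 2130 and 4331 TPM in UVB rats, and these ranges overlapped. In UVB averaged over genotypes, 4 of 12 were called, all lower, against 9.48% of all genes, with a list median of -0.38. Among them were Actn3 and Pvalb, both of fast fibres, at -1.60 and -1.34 (limma adjusted p = 0.000117 and 0.000251), while the most abundant markers Acta1 and Mylpf were not called. In P1.hMR rats, in which Aqp4 was called, 4 of the 12 were called lower and 0 higher, against 10.8% of all genes called. These were Actn3 (-1.36), Pvalb (-0.99), Casq1 (-0.59) and Mb (-0.57). The list median was -0.35, and 2 of the 12 had a positive difference. Mean Acta1 was 765 TPM without and 806 TPM with UVB in these rats, and that of the fast myosin Myh4 was 328 and 330.2 TPM. Actn3, Pvalb, Casq1, Mb and Myh4 were singled out here after their values were seen. Within groups, Aqp4 and the muscle sum had a Pearson r of 0.29 (permutation p = 0.314, adjusted p = 0.785) and a Spearman rho of 0.33 (permutation p = 0.262, adjusted p = 0.736), and r was 0.51 without the 2 farthest rats. After rescaling without the muscle markers, the averaged difference of Aqp4 was -1.08. These markers summed to at most 4991 TPM, where the listed genes of each rat summed to at least 804378 TPM. Leaving them out could therefore hardly change Aqp4, and the rescaled value says nothing of its cell source. The part of muscle fibres in the fall of Aqp4 was not tested. The dystrophin complex, through which syntrophins anchor Aqp4 at the membrane, had 12 of 12 genes tested and 0 called by limma in any of the 6 comparisons (6 at an unadjusted p under 0.05 in UVB averaged over genotypes), with a median of -0.11.

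Aqp9, an aquaglyceroporin known from hepatocytes and leukocytes, fell after UVB in P1.hMR rats as well. It stood at 5.08, 11.4, 8.69, 12.2 and 8.48 TPM in Control P1.hMR rats and at 3.46, 4.02, 3.61, 3.1 and 3.25 TPM in UVB P1.hMR rats. The 2 groups did not overlap, as for 14% of the genes tested, and the irradiated rats lay close together. The log2 difference was -1.13 (standard error 0.26, limma adjusted p = 0.00274) and the ratio of mean TPM 0.381.

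In WT rats Aqp9 was spread widely. Its values were 3.8, 5.06, 8.46 and 9.38 TPM without and 4.43, 1.48 and 5.28 TPM with UVB, so that the groups overlapped. The log2 difference was -0.74 (95% interval -1.40 to -0.07, limma adjusted p = 0.105), and it ran from -0.99 without UVB WT rat 3 (adjusted p = 0.0555) to -0.32 without UVB WT rat 2 (adjusted p = 0.49). It was called only without Control WT rat 1 (-0.94, adjusted p = 0.0425). Averaged over genotypes Aqp9 fell by 0.93 on the log2 scale (limma adjusted p = 0.00139), and the interaction was -0.40 (limma adjusted p = 0.882).

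Markers of phagocytes and neutrophils, cells in which Aqp9 is found, did not move in 1 direction. Of the 14 markers 12 were tested, and 3 were called in UVB averaged over genotypes, all higher, namely Csf3r at 1.05, Cd14 at 0.92 and S100a9 at 0.52 (limma adjusted p = 6.85e-06, 6.01e-07 and 0.000901). The share called over all genes was 9.48%. Lyz2, the lysozyme of macrophages, was lower on average with UVB in both genotypes, at 164 and 96.9 TPM in WT and at 200.2 and 138 TPM in P1.hMR rats, and was not called. Csf3r, Cd14 and Lyz2 were named after their values were seen. The median was 0.10, and 6 of the 12 had a positive difference. The summed list, most of it S100a8 and S100a9, which keratinocytes also express, lay between 1727 and 2110 TPM in control and between 2015 and 3041 TPM in UVB rats. The leukocyte gene Ptprc ranged from 1.38 to 3.62 TPM and Fpr2 was at 0 in 15 of 17 rats. Within groups Aqp9 had a Pearson r of -0.09 with this sum (permutation p = 0.684, adjusted p = 0.868) and a Spearman rho of -0.12 (permutation p = 0.653, adjusted p = 0.920), and r was -0.09 without the 2 farthest rats. The part of immune cells in the level of Aqp9 was not tested.

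Aqp3, the aquaglyceroporin of basal epithelial cells and the most abundant member, was not called in any comparison. It was measured at 474, 563, 701 and 594 TPM in Control WT rats and at 680, 559 and 671 TPM in UVB WT rats, with overlapping ranges and a log2 difference of 0.14 (95% interval -0.12 to 0.39, limma adjusted p = 0.448). In Control P1.hMR rats it stood at 573, 626, 623, 602 and 587 TPM and in UVB P1.hMR rats at 635, 601, 717, 821 and 790.4 TPM. Here 4 of the 5 irradiated rats stood above all controls, and the difference was 0.23 (95% interval 0.02 to 0.44, limma adjusted p = 0.0722). The single-gene exact permutation test, two-sided, gave p = 0.0397 for the same difference. Averaged over genotypes the difference was 0.18 (limma adjusted p = 0.0607).

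**Figure D2:**
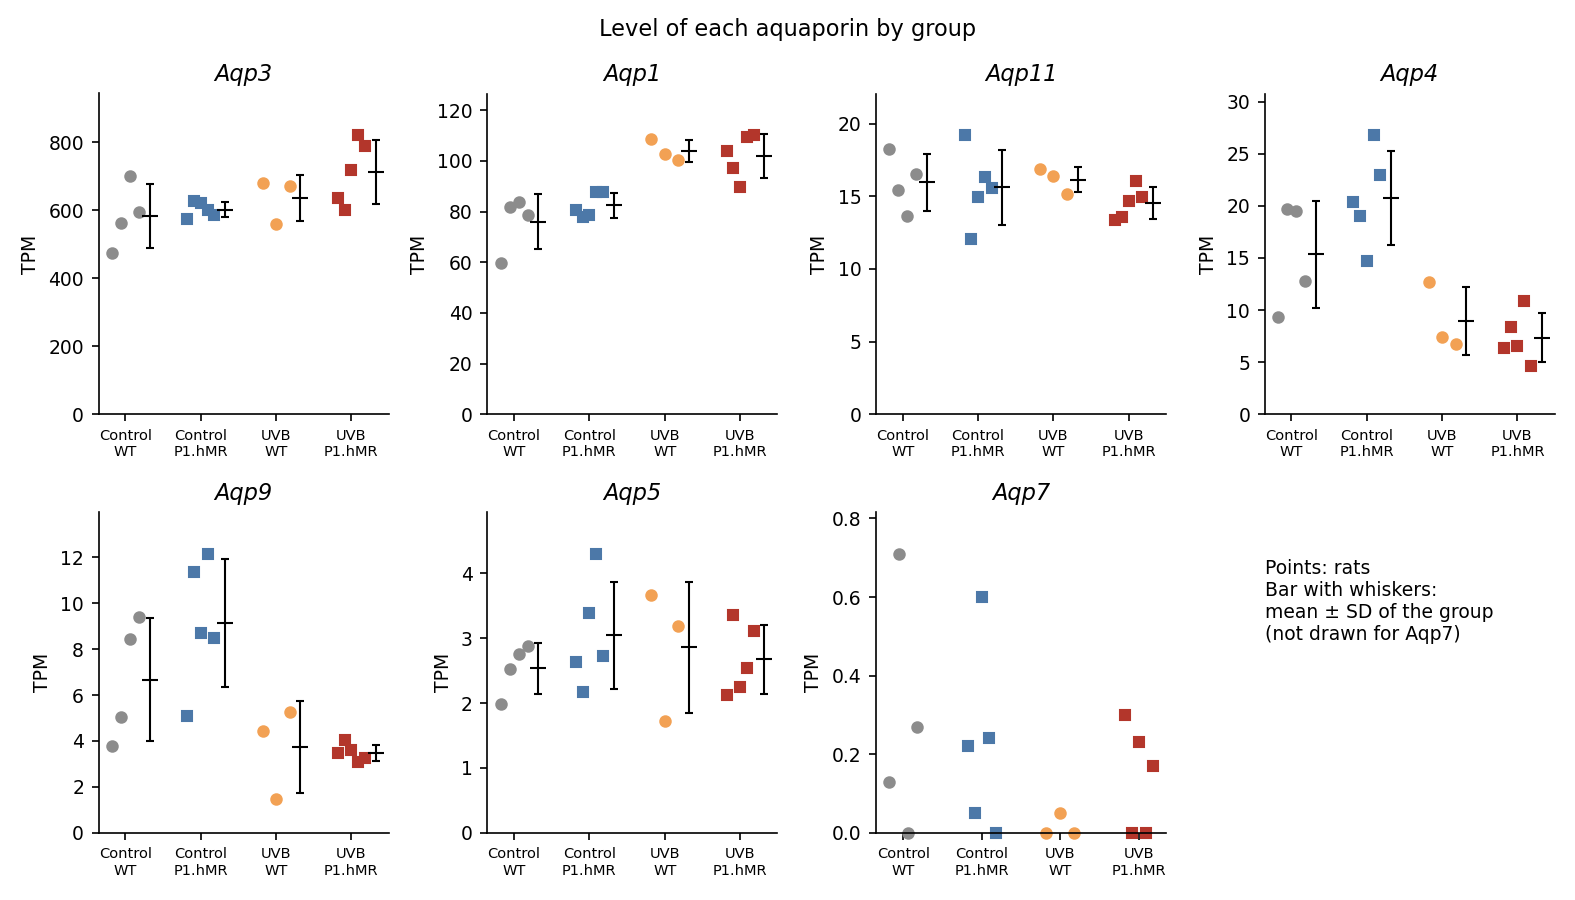
Level in TPM of each of the 7 aquaporins in the 4 groups, with 1 point per rat and the group mean ± SD beside the points except for Aqp7, on axes that start at 0. All 8 UVB rats stood above all 9 control rats for Aqp1, and the 2 P1.hMR groups did not overlap for Aqp4 and Aqp9.

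Within groups, Aqp3 was higher where basal keratinocyte and ocular surface markers were higher and meibocyte markers lower, although 0 of the 60 relations of members and marker lists passed adjustment (6 had a permutation p under 0.05). With the sum of 9 basal keratinocyte markers, led by Krt14 and Krt5, Aqp3 had a Pearson r of 0.78 (permutation p = 0.0011, adjusted p = 0.066) and a Spearman rho of 0.81 (permutation p = 0.00232, adjusted p = 0.0944). Without the 2 rats farthest in that sum r was 0.78. With the ocular surface markers, led by Krt13 and Krt4, r was 0.79 (permutation p = 0.00379, adjusted p = 0.0665), rho was 0.75 (permutation p = 0.00629, adjusted p = 0.0944), and r without 2 rats was 0.67. With the meibocyte sum r was -0.78 (permutation p = 0.00443, adjusted p = 0.0665), rho was -0.75 (permutation p = 0.00416, adjusted p = 0.0944), and r without 2 rats was -0.63. With the suprabasal keratinocyte sum no such relation was seen, with an r of 0.083 (permutation p = 0.775, adjusted p = 0.895), a rho of 0.096 (permutation p = 0.745, adjusted p = 0.920) and an r of -0.16 without 2 rats. The relation with the meibocyte sum was not particular to Aqp3. Aqp9 had an r of -0.73 with that sum (permutation p = 0.0032, adjusted p = 0.0665) and -0.82 without 2 rats. Its rho was -0.65 (permutation p = 0.016, adjusted p = 0.160). Shares of a fixed total are not independent of each other, and the part of the dissected cell mix in the levels of Aqp3 and Aqp9 was not tested. Of the 9 basal markers 0 were called in UVB averaged over genotypes by limma (6 at an unadjusted p under 0.05), against 9.48% of all genes. Their sum lay between 9841 and 11930 TPM in control and between 9602 and 15440 TPM in UVB rats.

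**Figure D3:**
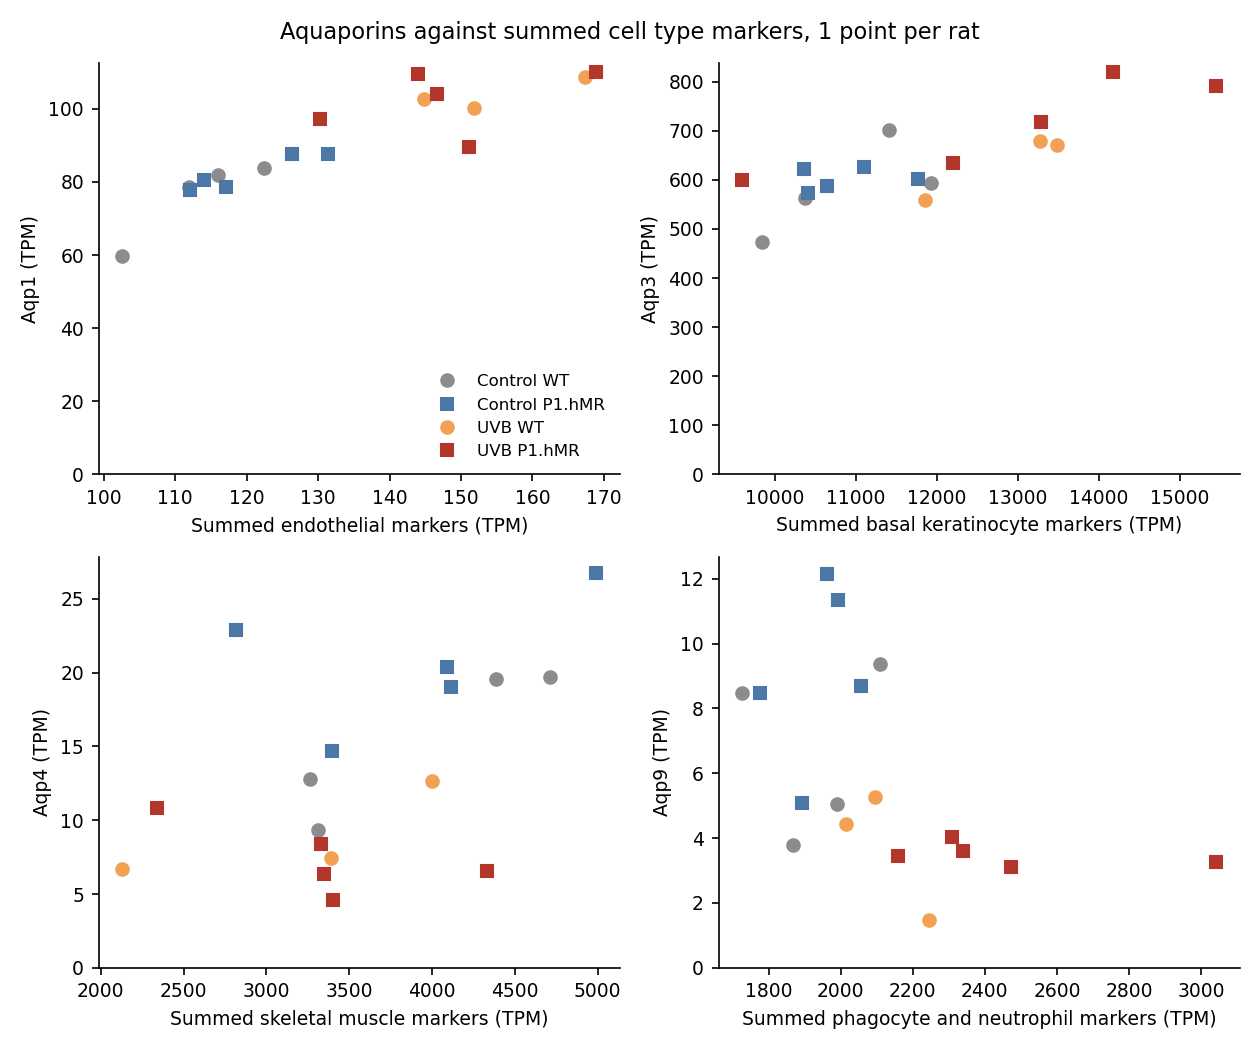
Level of 4 aquaporins against the summed TPM of a marker list, with 1 point per rat, coloured by group. The UVB rats stood to the upper right for Aqp1 and endothelial markers (130 to 169 TPM against 103 to 131 TPM in control rats). Within groups, Aqp3 had an r of 0.78 with basal keratinocyte markers, which did not pass adjustment (permutation p = 0.0011, adjusted p = 0.066). The r of Aqp9 with phagocyte and neutrophil markers was -0.09 (permutation p = 0.684).

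Aqp5, the apical water channel of lacrimal and salivary acini that is also found in corneal epithelium, was low. It lay at 1.99, 2.52, 2.75 and 2.88 TPM in Control WT and at 3.66, 1.73 and 3.18 TPM in UVB WT rats. In P1.hMR rats it lay between 2.17 and 4.3 TPM without and between 2.12 and 3.35 TPM with UVB. The groups overlapped, and the averaged log2 difference was -0.02 with a 95% interval from -0.28 to 0.25. Of 13 lacrimal and salivary acinar markers 5 were listed, led by Bhlha15 (4.26 to 8.83 TPM) and Lpo (0.34 to 4.53 TPM), and Bpifa2 was at 0 in all 17 rats. The 2 of them tested were not called, 1 of them at an unadjusted p under 0.05 in limma.

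Aqp11 was the steadiest of the low members. Its levels were 18.3, 15.4, 13.6 and 16.5 TPM in Control WT rats and 16.9, 16.4 and 15.2 TPM in UVB WT rats. They ran from 12.0 to 19.2 TPM in Control P1.hMR and from 13.3 to 16.1 TPM in UVB P1.hMR rats, with a coefficient of variation between 5.47% and 16.5% in the 4 groups. The averaged UVB difference was -0.03 on the log2 scale, with a 95% interval from -0.19 to 0.13 that excludes the fold threshold of 0.5 in both directions.

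Aqp7, the glycerol channel of adipocytes, was near or at 0. It was listed at 0.13, 0.71, 0 and 0.27 TPM in Control WT rats and at 0, 0.05 and 0 TPM in UVB WT rats. In Control P1.hMR rats the values were 0.22, 0.05, 0.6, 0.24 and 0 TPM, and in UVB P1.hMR rats 0.3, 0, 0.23, 0 and 0.17 TPM. With 6 of 17 rats listed at 0 it did not reach the filter of 1 TPM in at least 3 rats and was not tested. The adipocyte markers were present, with 10 of 12 listed, a sum between 114 and 204 TPM in control and between 121 and 182 TPM in UVB rats, and Cfd and Fabp4 as the most abundant. Of the 9 tested, 3 were called lower and 1 higher in UVB averaged over genotypes, where 9.48% of all genes tested were called. In the GRCr8 annotation Aqp7 and Aqp3 are neighbours on chromosome 5 with 0 protein-coding genes between them, so the lowest and the highest member lie side by side. Aqp5 and Aqp6 adjoin in the same way on chromosome 7.

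Counted over the members, UVB went with 2 calls in P1.hMR and none in WT rats. The filter left 6 of the 7 members to test. In UVB P1.hMR against Control P1.hMR, 2 of 6 were called, both lower, where 10.8% of all genes tested were called (662 higher and 748 lower). In UVB WT against Control WT, 0 of 6 were called by limma, where 7.91% of all genes were, although 3 had an unadjusted p under 0.05, namely Aqp1, Aqp4 and Aqp9. The two-sided exact permutation test of 3 against 4 rats cannot go below p = 0.0571, which it gave for Aqp1. Averaged over genotypes, 2 of 6 were called against 9.48% of all genes, and the median of the 6 differences was -0.02 against -0.01 over all genes tested. Without a fold threshold, the members past an adjusted p of 0.05 were 1 of 6 in WT rats (21.5% of all genes), 3 of 6 in P1.hMR rats (39.1% of all genes) and 3 of 6 averaged over genotypes (47.2% of all genes), which is near the background in each case.

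**Figure D4:**
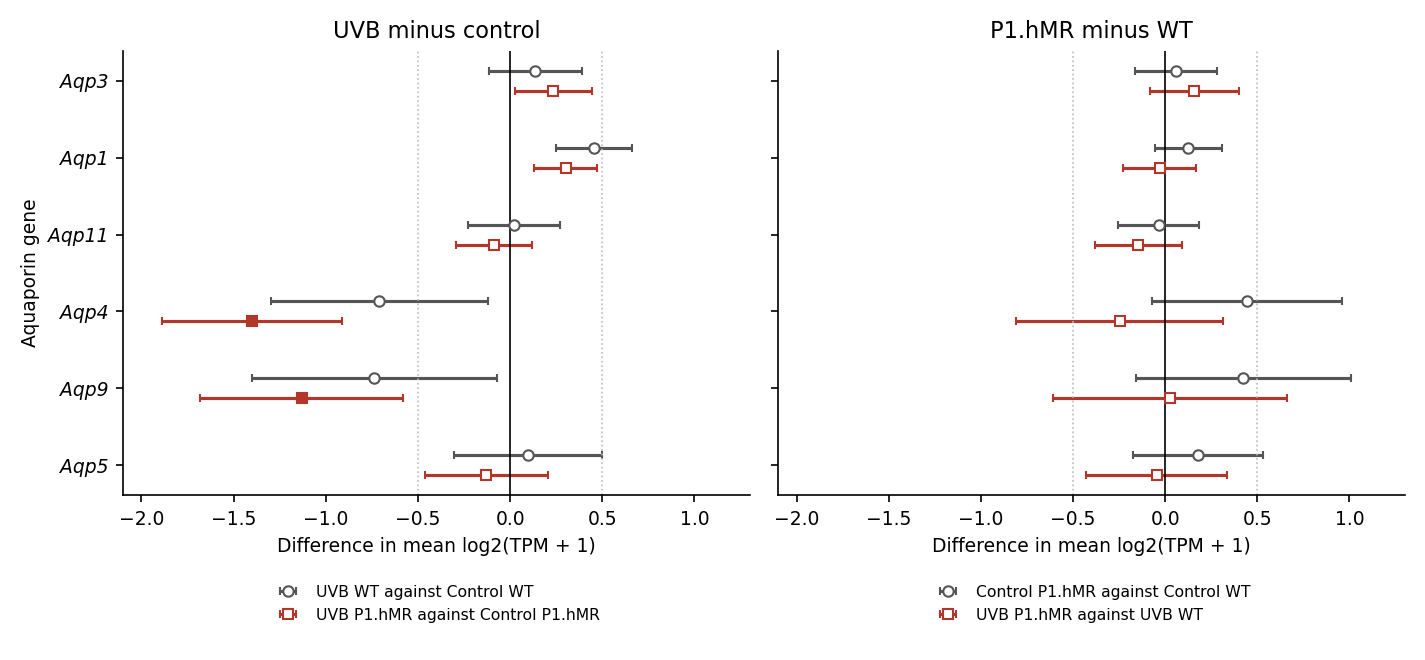
Difference in mean log2(TPM + 1) of 6 aquaporins with 95% intervals, for UVB against control in each genotype and for P1.hMR against WT in each treatment. Filled symbols were called, open symbols were not, and dotted lines mark the fold threshold of 0.5; only Aqp4 (-1.40) and Aqp9 (-1.13) in P1.hMR rats are filled.

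The transgene alone went with no called difference among the aquaporins. In Control P1.hMR against Control WT rats 0 of 6 members were called by limma and 0 had an unadjusted p under 0.05, against 0.00763% of all genes called. The largest differences were 0.44 for Aqp4 (95% interval -0.07 to 0.96) and 0.42 for Aqp9 (95% interval -0.16 to 1.01), intervals wide enough to hold changes past the threshold. Without Control WT rat 1 they were 0.245 and 0.22, and with sample weights that of Aqp4 was 0.29. For Aqp4 the two-sided exact permutation test gave p = 0.127. In UVB P1.hMR against UVB WT rats 0 of 6 members were called and 0 had an unadjusted p under 0.05, against 0.0229% of all genes called. The differences there ran from -0.25 for Aqp4 to 0.16 for Aqp3. In the interaction of genotype and UVB 0 of 6 members were called, as were 0% of all genes, with 0 members and 907 of all genes at an unadjusted p under 0.05. The UVB contrasts and the genotype contrasts share the same rats, so these values are not independent of each other.

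The members varied unequally between rats of a group. The pooled within-group SD of log2(TPM + 1) was 0.14 for Aqp1, 0.17 for Aqp3 and 0.16 for Aqp11, near the median of 0.13 over the genes tested. It was 0.40 for Aqp4, 0.46 for Aqp9 and 0.27 for Aqp5. Among the Control WT rats, rat 1 was the lowest for 5 of the 6 members tested. Of the 15 pairs of members, 11 had a positive within-group Pearson r, from -0.53 between Aqp9 and Aqp11 to 0.63 between Aqp5 and Aqp9, and 0 passed adjustment (4 had a permutation p under 0.05, lowest adjusted p = 0.171).

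The genes whose within-group pattern over the 17 rats was most like each member are given as a description, by Pearson r and, after it, r without the 2 rats farthest in the member. For Aqp3 these were Mall (0.95, then 0.93), the endocytic adaptor Epn3 (0.93, then 0.89) and the desmosome component Jup (0.92, then 0.95). For Aqp4 they were RGD1559575 (0.90, then 0.85), the actin-binding peptide Tmsb4x (0.89, then 0.84) and the metallopeptidase Mmp27 (0.89, then 0.87). For Aqp1 they were Carmil3 (0.91, then 0.79), RGD1565059 (0.88, then 0.78) and Tmc4 (0.86, then 0.79). Of these 9 genes, only Jup had a higher r without the 2 rats. For Aqp9 they were Slc35e4 (0.92, then 0.86), the transcription factor Runx3 (0.87, then 0.81) and Itm2b (0.87, then 0.84). For Aqp5 they were Rerg (0.83, then 0.74), Rp2 (0.83, then 0.72) and Snx18 (0.82, then 0.75). For Aqp11 they were Snrnp25 (0.84, then 0.63), the double-stranded RNA receptor Tlr3 (0.82, then 0.79) and Aarsd1 (0.82, then 0.83). A like pattern within groups did not go with a like difference after UVB for Aqp1, which was higher. Carmil3, which was low at a mean of 0.94 TPM, and Tmc4 fell (-0.50 and -0.58, limma adjusted p = 0.000531 and 6.32e-06). For Aqp4 the differences were alike, as RGD1559575, Mmp27 and Tmsb4x were lower too (-0.76, -0.76 and -0.44, limma adjusted p = 1.46e-05, 0.000141 and 0.000381), Tmsb4x without a call. Aqp9 was called lower (-0.93, limma adjusted p = 0.00139). Slc35e4, Runx3 and Itm2b were not called (0.0086, 0.0976 and -0.15, limma adjusted p = 0.932, 0.391 and 0.00901).

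Of the genes that handle what the channels carry, UVB averaged over genotypes had 3 of 21, 2 of 21 and 1 of 20 called in the 3 lists, near the 9.48% called over all genes. Of 21 glycerol handling genes tested, 1 was called higher and 2 lower in UVB averaged over genotypes, with a list median of -0.02. Dgat1, which makes triglyceride from diglyceride, rose by 0.68 (limma adjusted p = 1.97e-07), while the lipid droplet coat gene Plin1 fell by 0.64 (adjusted p = 0.0111) and Pnpla3 fell by 0.57 (adjusted p = 0.000993). In P1.hMR rats 2 were called in each direction, and glycerol kinase Gk, named after its value was seen, rose by 0.53 (limma adjusted p = 6.66e-05). Of 21 hydrogen peroxide genes tested, 1 was called higher and 1 lower, with a median of 0.18 (2 higher in WT rats, and in P1.hMR rats 1 in each direction). The glutathione peroxidase Gpx2 rose by 1.01 (limma adjusted p = 7.92e-06) and the NADPH oxidase Nox1 fell by 0.55 (adjusted p = 0.000149). Of 20 genes of osmolyte and volume regulation tested, 1 was called, the aldosterone-induced kinase Sgk1, which fell by 0.57 (limma adjusted p = 1.04e-05), with a median of -0.08. Sgk1 was also the 1 call of this list within each genotype. None of these 3 lists nor the dystrophin complex had a call in either genotype comparison, where 0 to 5 members of a list had an unadjusted p under 0.05 in limma.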

How the data were processed

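Total RNA of the MG from 17 female rats was sequenced. According to the paper's methods, the authors aligned reads with STAR to rn7 and quantified genes with RSEM, whereas the submitters' processing notes name FastQC, Trimmomatic, DRAGEN and Picard, with no order given. The deposited values are TPM, relative to 1000000 transcripts per library, with decimal commas and 1 column per rat, and eyes of 1 rat that were both analysed were, according to the study, pooled as 1 sample. The listed genes summed to between 804378 and 840817 TPM. Of these 17251 genes, 12 were at 0 in every rat. TPM holds no counts, so the count test of the authors' methods (DESeq2) was not repeated, and depth is unknown.

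Groups were taken from the sample titles. Values were analysed as log2(TPM + 1), a pseudocount of 1 that understates changes of low genes. Genes that reached 1 TPM in 3 rats or more, 13105 in number, were fitted together by limma-trend (limma 3.58.1, R 4.3.3) with 4 group means, and p-values, two-sided, were Benjamini-Hochberg adjusted over all genes tested. The 6 contrasts were UVB against control in each genotype and averaged, P1.hMR against WT in each treatment, and their interaction. Calls needed an adjusted p under 0.05 and an absolute log2 difference of at least 0.5. Single genes were also compared by exact permutation, and relations across rats by 100000 permutations within groups (Python 3.11.15, numpy 2.4.6, pandas 2.3.3, figures with matplotlib 3.10.9). The model was tested on simulated data. Promoters came from RefSeq (GRCr8), another build than rn7, and Aqp4 sequence is not shown.

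The members and lists were chosen with earlier results of these data known. Named genes were the members and other listed aquaporins, the 3 tested genes most like each member with a mean of at least 1 TPM, up to 3 called genes per pathway list with the largest averaged UVB change, the 2 most abundant genes per marker list, and NR3C2 with Nr3c2. The alternatives were a pseudocount of 0.1, no filter, a mean of at least 5 TPM, quantile and median-of-ratios scaling, rescaling without muscle markers or the 50 highest genes, no trend, sample weights, a replicate block, other fold thresholds, fits of 2 groups, each rat left out, exact tests and medians in place of means. The suprabasal keratinocyte list (9 genes tested, led by Krt1 and Krt10, 1 called higher and 1 lower in UVB averaged over genotypes) and the meibocyte list (17 tested, 3 higher and 2 lower) were used as descriptions only, as was the ocular surface list (6 tested, 1 higher and 1 lower). The share called over all genes tested was 9.48% in that comparison.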

Additional observations from a re-analysis of the deposited data

How the results depend on the processing

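Aqp4 and Aqp9 were called in UVB P1.hMR against Control P1.hMR rats under all alternatives run, with log2 differences from -1.54 to -1.27 and from -1.31 to -1.03. In UVB WT against Control WT rats the count of called members went from 0 to 1 with sample weights (Aqp4) and to 1 without a fold threshold (Aqp1), and it ran from 0 to 2 with each rat left out. It was 2 without Control WT rat 1 (Aqp4 and Aqp9), 1 without Control WT rat 3 (Aqp1 at 0.51) and 1 without UVB WT rat 1 (Aqp4). Averaged over genotypes the count went from 2 to 1 (Aqp4) at an absolute log2 difference of at least 1, since the threshold lies above the difference of Aqp9. Over all genes, the averaged UVB calls went from 1243 to 6192 without a fold threshold, to 240 at a threshold of 1 and to 790 among genes with a mean of at least 5 TPM. Where not given, the cause was not tested. Values near 0 changed sign without a call. The averaged UVB difference of Aqp5 was 0.0031 with quantile normalization and 0.0135 with the replicate block, and that of Aqp9 between UVB P1.hMR and UVB WT was -0.0349 with sample weights and -0.0417 with the replicate block. Signs also changed with rats left out, within ranges of -0.0585 to 0.33 for Aqp5 in UVB WT against Control WT, -0.0472 to 0.0852 for Aqp11 in UVB WT against Control WT, -0.0935 to 0.0994 for Aqp5 in UVB averaged over genotypes, -0.0754 to 0.0036 for Aqp11 in UVB averaged over genotypes, -0.034 to 0.15 for Aqp3 in Control P1.hMR against Control WT, -0.11 to 0.0484 for Aqp11 in Control P1.hMR against Control WT, -0.0579 to 0.0157 for Aqp1 in UVB P1.hMR against UVB WT, -0.40 to 0.0082 for Aqp4 in UVB P1.hMR against UVB WT, -0.28 to 0.11 for Aqp5 in UVB P1.hMR against UVB WT and -0.38 to 0.29 for Aqp9 in UVB P1.hMR against UVB WT. The uncalled interaction ran from -0.85 to -0.44 for Aqp4 and from -0.81 to -0.14 for Aqp9 with rats left out. Of 22 pairs of rats with the same replicate number, 4 had a correlation of deviations over 0.1 (range -0.19 to 0.24). Pairs with different numbers were not compared, so whether the numbers pair the rats was not settled. The replicate block left the 2 calls in P1.hMR rats (limma adjusted p = 0.000832 for Aqp4 and 0.00415 for Aqp9) and the 0 in WT rats as they were. By median in place of mean, 26 of 28 places in the order of levels were equal. Depth is unknown in TPM, so low members such as Aqp5 and Aqp7 carry an error that only the spread between rats shows.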

Other observations

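No aquaporin value was flagged as apart from its group, in a check that sets of 4 or 5 rats leave weak. Of 21 sets of 4 or 5 rats (7 members in the 3 groups of that size), 0 had a highest or lowest value separated from the others beyond the 95% critical value of Dixon, which chance exceeds in about 1 of 20 sets. The UVB WT group, with 3 rats, was too small for this check. So few values per set cannot show that no rat stood apart. Control WT rat 1, which was not flagged, was the lowest of its group for 5 of the 6 members tested.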
